A study of Mus musculus with 5 samples.

Results

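The genes described are 10 members of the tumor necrosis factor (TNF) family and its feedback machinery in mouse lung. They were chosen by exact symbol in the gene name column of the deposited features, and all 10 were found among 42454 features. The ligands are Tnf, Tnfsf9 and Tnfsf14. The receptors are Tnfrsf1a, Tnfrsf1b and Tnfrsf12a. The TNF-induced or TNF-restraining genes are Tnfaip2, Tnfaip3, Tnfaip8l2 and Nfkbia. No measured value entered the choice, but members and gene lists were drawn up when results of these data were already known.

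Droplet single-cell RNA-seq counted unique molecular identifiers (UMIs) in 5 libraries of lung cells from C57BL/6J mice, and the labels give no genotype other than this strain for any group. Newborn mice were kept in room air or in hyperoxia (>95% O2) for 3 days and then in room air, and unsorted lung cells were taken at postnatal day 7 (pnd7) or 60 (pnd60), which gave the groups air pnd7, hyperoxia pnd7, air pnd60 and hyperoxia pnd60. The fifth library held cells from hyperoxia-exposed lungs at pnd7 that were positive for C12FDG, a fluorescent substrate of beta-galactosidase used to sort senescent cells, and it was pooled from 3 mice. The unsorted libraries came from an earlier experiment of the same laboratory, the number of mice in each is not given in the sources used here, and so the sort and the experiment cannot be told apart.

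TNF is made mainly by activated macrophages and lymphocytes, is cleaved from the cell surface, and signals through Tnfrsf1a, which most cells carry, and Tnfrsf1b, which is carried mostly by leukocytes and some endothelium. Both receptors activate NF-kB, a transcription factor held in the cytoplasm by IkB-alpha, the product of Nfkbia. NF-kB then induces its own brakes, among them Nfkbia and Tnfaip3, which encodes the ubiquitin-editing enzyme A20. In the lung this pathway is known for recruiting neutrophils and monocytes after injury.

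NF-kB binds a short motif, the kappaB consensus, and the promoters below show where it occurs in 2 of the genes that carry the results. RefSeq promoters (GRCm38.p6, 300 bases each, 250 before and 50 after a start site as placed in that table) were available for 9 of the 10 members, the exception being Tnfsf9. The kappaB consensus, searched on both strands, occurred in the windows of 2 of these 9 members, against 1480 of all 32851 promoters (4.51%). The first count is of members and the second of promoters. Nfkbia (chr12:55492598-55492897, minus strand) held 1 match, at positions -29 to -20 from the start and on the opposite strand. Tnfaip3 (chr10:19015361-19015660, minus strand) held 2 matches that did not overlap, at positions -125 to -116 on the gene's strand and -12 to -3 on the opposite strand. A further Tnfaip3 promoter (chr10:19011914-19012213) held no match and is not shown. For Tnfaip2 and Tnfaip8l2 the start site of the table lies away from the start of the gene as annotated here. Their windows are not shown, and they enter the count of 9 as members without a match. Capitals mark the matches, each sequence runs 5′ to 3′ on the gene's strand, and a match is a description, not a site or a cause.
Nfkbia: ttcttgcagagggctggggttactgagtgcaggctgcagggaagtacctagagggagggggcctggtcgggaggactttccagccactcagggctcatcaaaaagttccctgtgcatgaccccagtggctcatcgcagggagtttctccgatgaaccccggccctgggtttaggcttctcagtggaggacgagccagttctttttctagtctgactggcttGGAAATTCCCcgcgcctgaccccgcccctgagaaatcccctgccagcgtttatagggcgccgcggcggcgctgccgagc
Tnfaip3: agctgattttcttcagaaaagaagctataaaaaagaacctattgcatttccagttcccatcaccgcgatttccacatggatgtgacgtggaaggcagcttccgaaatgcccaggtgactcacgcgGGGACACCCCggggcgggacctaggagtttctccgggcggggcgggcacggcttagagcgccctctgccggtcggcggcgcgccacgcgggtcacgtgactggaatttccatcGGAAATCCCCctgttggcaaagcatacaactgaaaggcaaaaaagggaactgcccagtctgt

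Cells with more than 700 and fewer than 8000 genes and under 5% mitochondrial counts were kept, 1246 to 4756 per unsorted library and 493 in the sorted one. The kept cells held 7880365 to 16648251 counts per library. The median cell held 15529 counts in the sorted library and 2168 to 7119.5 in the others. Libraries shared at most 4 kept barcodes, and the sorted library shared 0 with any other. Values are summed counts of a library or class per 1000000 counts (CPM). Their exact Poisson 95% intervals, and the exact binomial intervals of log2 ratios, reflect only the error of counting UMIs. Since each condition was 1 library, no difference had a replicate check and no test was made. A member was counted as higher or lower at a 2-fold ratio with at least 100 counts in both groups together. In summed counts, fewer cells of a type and less RNA per cell cannot be told apart. The clustering gave type I-like, type II-like, endothelial-like and other lung classes in the unsorted libraries, whereas 460 of the 493 sorted cells (93.3%) were macrophage-like, of which 412 were alveolar macrophage-like and 48 interstitial macrophage-like.

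Over all cells, the ligands had few counts and 4 members had their highest level in the sorted library. Tnfaip2, a TNF-induced gene of myeloid and endothelial cells, was at 1019 CPM (997 to 1042) among the sorted cells and at 71.1 to 167 in the 4 other libraries. Tnfrsf1b, the second TNF receptor, was at 280 CPM (268 to 292) there and at 46.8 to 108 elsewhere. Tnfaip8l2, an immune-cell protein that restrains inflammatory signaling, was at 59.1 CPM (53.9 to 64.8) and elsewhere at 19.8 to 28.4. Tnfrsf12a, the TWEAK receptor, was at 53.0 CPM (48.1 to 58.4) and elsewhere at 20.2 to 31.1. The intervals of these genes in the sorted library lay above those of every unsorted library.

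**Figure D1:**
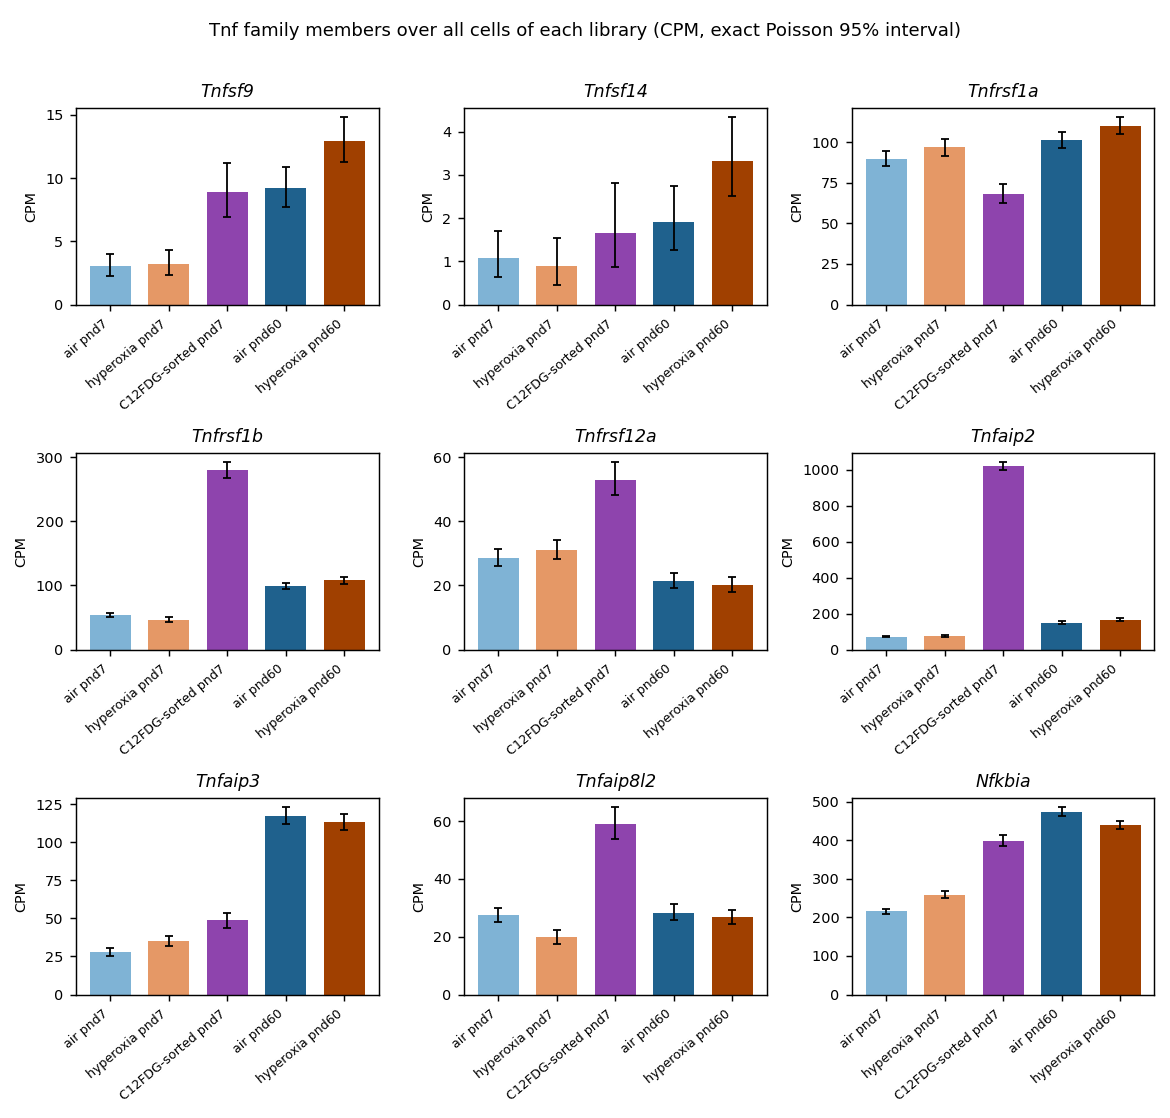
Level of each of the 9 detected members over all kept cells of a library, in CPM on the y axis, for the 5 libraries on the x axis. Bars give the value of 1 library and error bars its exact Poisson 95% interval; Tnfaip2 and Tnfrsf1b stand highest in the C12FDG-sorted library, whereas Tnfaip3 stands highest in the 2 pnd60 libraries (117 and 113 CPM).

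Tnf itself (chr17:35199367-35202007) had 0 counts in every library, which allowed at most 0.180 to 0.381 CPM (3 counts). This zero could not be read as silence of the gene. The features listed 3 further copies under the names Tnf_1, Tnf_2 and Tnf_3, which together held 4 counts, 3 in the sorted library and 1 in air pnd60, all in alveolar macrophage-like cells. Ltb, the lymphotoxin beta gene that lymphocytes use widely, also had 3 further copies and had 0 counts in 1328 T-like, 2698 B-like and 386 NK-like cells, although the T cell marker Cd3e had 2567 counts in the T-like cells. Across the annotation, 904 of 1740 genes with a further copy (52.0%) had 0 counts under their plain name in all barcodes. Of 38368 genes without a copy, 14257 had 0 counts (37.2%). Counts under the names of the copies were not added, so the first share is not a share of undetected genes. Ighm, for example, was at 0 in every library, whereas its copy Ighm_1 was a leading gene of a B-like cluster. Whether reads that match several copies were dropped was not tested.

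Tnfsf9, the 4-1BB ligand that co-stimulates T cells, was at 3.06 CPM in air pnd7, 3.24 in hyperoxia pnd7, 8.88 in the sorted library, 9.22 in air pnd60 and 12.9 in hyperoxia pnd60. It was thus low in both unsorted pnd7 libraries and higher in the other 3, with intervals that did not overlap. Tnfsf14, known as LIGHT and made by activated T cells and neutrophils, was at 1.08, 0.884, 1.65, 1.90 and 3.33 CPM in the same order. These rest on 12 to 55 counts per library, and the 3 intervals at pnd7 overlapped.

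Tnfrsf1a, the death-domain receptor for TNF (chr6:125349723-125362483), was at 89.8 CPM in air pnd7, 96.9 in hyperoxia pnd7, 68.3 in the sorted library, 101 in air pnd60 and 110 in hyperoxia pnd60. Its highest and lowest libraries were closer than those of any other detected member, and it was lowest in the sorted cells. Tnfrsf1b (chr4:145212368-145246870) was at 53.5, 46.8, 280, 98.8 and 108 CPM in that order, so the library that was lowest for Tnfrsf1a was the highest for Tnfrsf1b. Tnfrsf12a, which is induced on injured epithelium and fibroblasts (chr17:23675445-23677449), was at 28.6, 31.1, 53.0, 21.4 and 20.2 CPM. It was highest in the sorted cells and lower at pnd60 than at pnd7.

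Among the targets and brakes, Tnfaip2 (chr12:111442450-111455018) was at 71.1, 76.9, 1019, 151 and 167 CPM. Tnfaip3 (chr10:19000910-19015410) was at 27.9, 35.2, 48.7, 117 and 113 CPM, and unlike Tnfaip2 it was highest at pnd60. Nfkbia (chr12:55489409-55492647) was at 215, 259, 398, 474 and 439 CPM. Both Nfkbia and Tnfaip3 were lowest in air pnd7 and highest in the 2 pnd60 libraries, whose intervals overlapped for Tnfaip3 (108 to 118 and 112 to 123 CPM). Tnfaip8l2 was at 27.5, 19.8, 59.1, 28.4 and 26.7 CPM.

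The first comparison asked how the sorted cells differed from unsorted cells of hyperoxia-exposed lungs at the same age. Of 8 members with 100 counts, 4 were at least 2-fold higher and 0 lower, where 8.17% of 11340 genes were higher and 36.4% lower. The 4 were Tnfaip2 (log2 ratio 3.73, 3.63 to 3.82), Tnfrsf1b (2.58, 2.45 to 2.71), Tnfaip8l2 (1.58, 1.36 to 1.80) and Tnfsf9 (1.45, 0.89 to 2.03). Tnfrsf12a, Nfkbia and Tnfaip3 were higher by less than 2-fold, at 0.77, 0.62 and 0.47. Tnfrsf1a was at -0.51 (-0.65 to -0.36) on this scale, close to the median of all genes (-0.55), and its ratio turned slightly positive with TMM or median-of-ratios scaling. The median over the 8 members was 1.11. Against air pnd7, which shares the sorted library, the same 4 members were higher and 0 lower, where 7.81% of genes were higher and 38.5% lower. Their log2 ratios were 3.84 for Tnfaip2, 2.39 for Tnfrsf1b, 1.11 for Tnfaip8l2 and 1.54 for Tnfsf9.

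The sorted and unsorted libraries differed in which classes carried these counts, and in this difference the C12FDG gate and the experiment cannot be told apart. In the sorted library 99.5% of Tnfaip2 counts, 98.6% of Tnfrsf1b counts and 98.7% of Tnfaip8l2 counts lay in macrophage-like cells. In the unsorted libraries those cells were 4.51% to 6.02% of all cells and held 8.27% to 11.8% of all counts. Of Tnfaip2 counts they held 65.0% to 74.4%. They held 24.4% to 38.4% of Tnfrsf1b counts and 29.2% to 36.1% of Tnfaip8l2 counts there. Tnfrsf12a was the exception, since macrophage-like cells held only 45.5% of its counts in the sorted library.

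Compared within macrophage-like cells, the sorted and unsorted hyperoxia libraries at pnd7 were closer. Only 1 of 7 members was at least 2-fold higher and 0 were lower, where 4.03% of 7039 genes were higher and 14.3% lower. That member was Tnfrsf12a, at 25.8 CPM (22.3 to 29.7) in 460 sorted cells and 9.80 in 75 unsorted cells (log2 ratio 1.40, 0.52 to 2.42). The unsorted value rests on 11 counts. Macrophage-like cells were at 14.7 CPM (9.12 to 22.5) in air pnd7, 18.4 (12.6 to 26.0) in air pnd60 and 13.1 (8.37 to 19.4) in hyperoxia pnd60. The sorted interval overlapped those of both air libraries. Tnfrsf12a was at 63.6 CPM (46.6 to 84.9) in the 48 sorted interstitial macrophage-like cells and had 0 counts in the unsorted ones. In most alveolar macrophage-like cells it was at 20.8 CPM (17.1 to 24.9) sorted and 10.3 (3.78 to 22.4) unsorted, intervals that overlapped. Over all macrophage-like cells, Tnfaip2 was at 1084 and 613 CPM (0.82, 0.71 to 0.94). Interstitial macrophage-like cells, which had less Tnfaip2, were 48 of the 460 sorted and 19 of the 75 unsorted cells. In most alveolar macrophage-like cells Tnfaip2 was at 1136 CPM (1108 to 1164) sorted and 796 (725 to 872) unsorted. The part of this mix in the ratio was not tested. Nfkbia was at 379 and 217 CPM (0.80, 0.61 to 0.997). The unsorted macrophage-like cells at pnd60 were near the sorted levels of both genes. They had Tnfaip2 at 949 CPM in air and 1071 in hyperoxia, and Nfkbia at 376 and 360. With TMM and median-of-ratios scaling, which raised every ratio here by 0.49, Tnfaip2 and Nfkbia also passed 2-fold.

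Tnfrsf1b was at 295 and 217 CPM in these macrophage-like cells (0.44, 0.25 to 0.64), compared with 2.58 over all cells. Tnfrsf1a was at 69.2 and 105 CPM (-0.60), Tnfaip3 at 49.9 and 77.5 (-0.63) and Tnfaip8l2 at 62.4 and 85.5 (-0.45), all below 0 as was the median of all genes (-0.29). These scalings left Tnfrsf1a and Tnfaip3 below 0 and put Tnfaip8l2 just above it, and thinning each cell to 1000 UMIs turned Tnfaip3 positive. Tnfsf9 had 59 counts in the sorted and 0 in the unsorted macrophage-like cells, a log2 ratio of 1.58 when the unsorted cells are set to 3 counts, with a lower limit of 1.24. Tnfsf14 had 13 and 0 counts, which at the smaller depth of the unsorted cells gave no bound above 0. The summed alveolar macrophage markers (14 genes, 14 of 14 detected) were at 6368 CPM in the sorted and 10116 CPM in the unsorted cells. Interstitial macrophage markers (9 of 10 detected, Pf4 at 0) were at 3243 and 6501 CPM. Type II markers were at 1283 CPM in the sorted macrophage-like cells (9 of 9 detected) and 321 CPM in the unsorted ones (7 of 9, Sftpb and Lamp3 at 0). In the remaining libraries they were above the sorted level, at 1888 CPM in air pnd7, 2523 in air pnd60 and 1939 in hyperoxia pnd60. The part of these lists in the ratios was not tested.

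**Figure D2:**
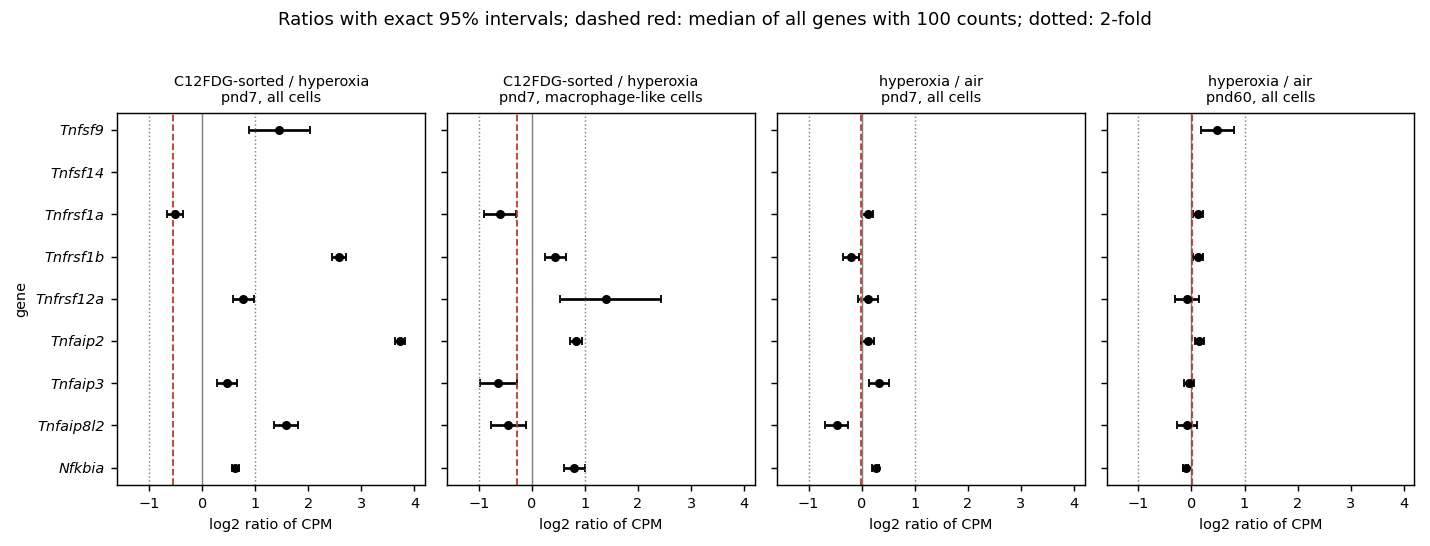
Log2 ratio of CPM of each member with 100 counts on the x axis, by gene on the y axis, in 4 comparisons. Points are ratios of 1 library to another, bars exact 95% intervals, dashed red lines the median of all genes and dotted lines a 2-fold difference; Tnfaip2 falls from 3.73 over all cells to 0.82 within macrophage-like cells, and no member passes 2-fold between hyperoxia and air.

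The sorted and unsorted macrophage-like cells also sat in different clusters. Of the 460 sorted cells, 370 lay in cluster 9, led by the oxidant and metal-response genes Slc7a11, Hmox1, Mt1 and Mt2, which held at most 5 cells of any other library and may be that library and not a cell type. Another 48 lay in the interstitial macrophage-like cluster 45, led by Ms4a7, Cxcl2 and C1q genes. It held 1 cell of air pnd7 and 0 of the other unsorted libraries. Like cluster 9, it may be the sorted library and not a cell type. The other 42 lay in the cycling cluster 41, led by Pclaf and Top2a, which also held 10 to 14 cells of each other library. Unsorted alveolar macrophage-like cells at pnd7 lay mainly in cluster 28 (67 and 38 cells) and interstitial ones in cluster 23 (21 and 19 cells).

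Nfkbia differed between the sorted clusters. It was at 333 CPM (318 to 348) in cluster 9, 309 in the sorted cells of cluster 41 and 838 (773 to 908) in cluster 45. In unsorted hyperoxia pnd7 cells it was at 127 CPM (99.9 to 160) in alveolar cluster 28 and 472 (389 to 568) in interstitial cluster 23. Cluster 23 had 848 CPM in air pnd60 and 922 in hyperoxia pnd60. Nfkbia was therefore higher in the interstitial than in the alveolar clusters in the sorted and the hyperoxia pnd7 library. Genes known to respond to cell dissociation moved the same way, with a summed level of 9310 CPM in the sorted interstitial and 1927 CPM in the sorted alveolar macrophage-like cells, and their part was not tested. Among alveolar macrophage-like cells alone, it was at 329 CPM in 412 sorted and 148 in 56 unsorted hyperoxia cells (log2 ratio 1.15, 0.89 to 1.41), past the 2-fold mark that it missed over all macrophage-like cells.

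Tnfaip2 ran the other way, with 1136 CPM in cluster 9, 1227 in the sorted cells of cluster 41 and 472 in cluster 45. In unsorted hyperoxia cells it was at 796 CPM in cluster 28 and 75.2 in cluster 23. Cluster 41 offers the one comparison inside a shared cluster, on fewer cells than the 50 set for comparing a class. Tnfaip2 was at 1227 CPM (1163 to 1294) in 42 sorted cells and 677 (577 to 789) in 12 hyperoxia pnd7 cells. It was at 507 CPM in 12 cells of air pnd7, 689 in 14 of air pnd60 and 908 (726 to 1121) in 10 of hyperoxia pnd60. Its sorted level was thus also higher among these few cycling cells. Tnfaip3 was at 48.9, 20.8 and 102 CPM in clusters 9, 41 and 45 of the sorted library, and Tnfrsf12a at 20.8, 26.2 and 63.6. Both were highest in cluster 45, like Nfkbia. Tnfrsf1b was at 312, 232 and 260 CPM, and Tnfrsf1a at 69.5, 75.8 and 56.7, so the TNF receptors varied least between these clusters.

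**Figure D3:**
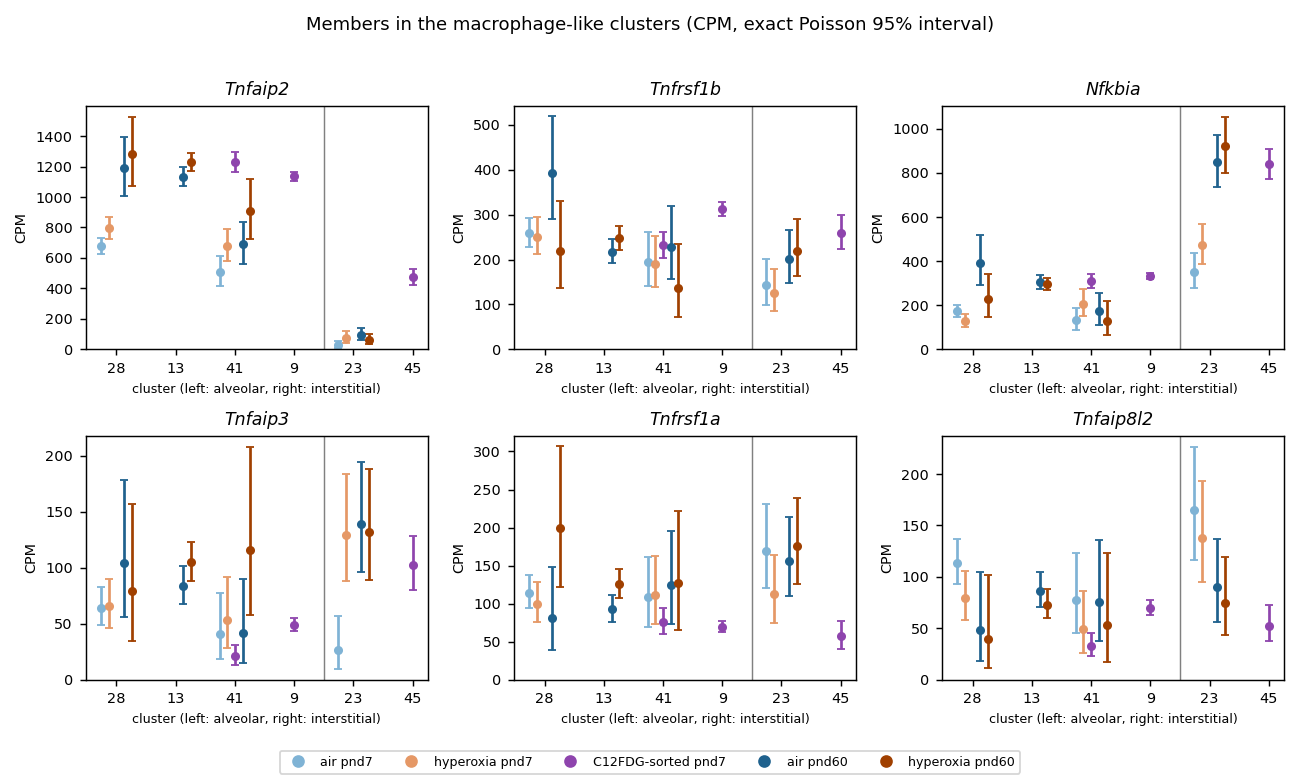
Level of 6 members in CPM on the y axis in the 6 macrophage-like clusters on the x axis, by library (color). Points are summed counts of 1 library in 1 cluster and bars exact Poisson 95% intervals. Tnfaip2 is lowest in interstitial cluster 23 (26.0 to 94.2 CPM). In interstitial cluster 45 it is at 472 CPM, overlapping alveolar cluster 41 of air pnd7 (507 CPM). The highest Nfkbia values are in interstitial clusters 23 and 45. In cluster 23 of air pnd7, however, Nfkbia is at 352 CPM, below alveolar cluster 28 of air pnd60 (394 CPM).

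Within the 460 sorted macrophage-like cells, the 46 cells highest for a gene held a share of its counts that depends in part on its depth. The share was 70.9% of the 368 counts of Tnfaip3 and 62.1% of the 190 of Tnfrsf12a. It was 38.7% of the 460 counts of Tnfaip8l2 and 33.1% of the 510 of Tnfrsf1a. So few counts give a high share even when spread evenly, and these shares are not compared with those of deeper members. Of the deeper members, Nfkbia had 42.1% of 2791 counts, Tnfaip2 27.5% of 7988 and Tnfrsf1b 26.7% of 2174. The 46 cells with the most counts of all genes held 19.7% of those. Tnfaip2 and Tnfrsf1b were carried by nearly all of these cells, as 438 and 416 of the 460 had at least 1 UMI (95.2% and 90.4%, at a median of 15610 counts per cell). Tnfaip2 was detected in 0 of 69 B-like cells of the hyperoxia pnd7 library at a median of 4172 counts, and Tnfrsf1b in 1.45%. Tnfaip3 was detected in 27.8% of the sorted macrophage-like cells. The 59 counts of Tnfsf9 came from 20 cells, 21 of them from 1 cell, and the 13 of Tnfsf14 from 6 cells.

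Sorted macrophage-like cells with the most Tnfaip3 also had more Nfkbia. In a split made after the values were seen, the 46 cells with the highest Tnfaip3 share (32 in cluster 9, 13 in cluster 45 and 1 in cluster 41) had Nfkbia at 1208 CPM (1127 to 1294), against 295 (282 to 308) in the 414 others. They held 9.21% of all counts but 29.4% of those of Nfkbia. The NF-kB-induced chemokine gene Cxcl2 was at 11823 and 1273 CPM, and the cytokine gene Il1b at 613 and 22.3 CPM, so that these 46 cells held 73.6% of the Il1b counts. Tnfsf9 was at 30.9 and 5.68 CPM and Tnfrsf1b at 460 and 278 CPM. Tnfaip2 differed little, at 1310 and 1061 CPM. Tnfaip8l2 was at 35.4 and 65.2 CPM, and the alveolar macrophage marker Ear1 at 161 and 333 CPM. The split took 13 of its 46 cells from cluster 45, which held 48 of the 460. That cluster had Nfkbia at 838 CPM and Cxcl2 among its leading genes. Dissociation-response genes were also higher in the sorted interstitial than in the sorted alveolar macrophage-like cells (9310 and 1927 CPM). The part of this cluster and of the dissociation response in the split was not tested.

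The sorted library also held 17 alveolar epithelial-like cells (9 type I-like and 8 type II-like), fewer than the 20 set for showing a class, and they were examined after their values were seen. These cells carried 180 of the library's counts of Tnfrsf12a (43.1%), or 547 CPM (470 to 633). Tnfrsf12a was at 41.7 CPM in such cells of air pnd7, 46.5 in hyperoxia pnd7, 26.4 in air pnd60 and 33.7 in hyperoxia pnd60. The log2 ratio to hyperoxia pnd7 was 3.56 (3.24 to 3.88) and that to air pnd7 was 3.71. Counts per cell ran from 0 to 31 with a median of 7, and 14 of the 17 cells had at least 1, so that no single cell carried the level. Nfkbia was also higher, with a log2 ratio of 1.52 (1.26 to 1.77) to hyperoxia pnd7. Tnfsf9 was at 30.4 CPM on 10 counts in these cells, against 4.68 in hyperoxia pnd7, a ratio of 2.70 (1.38 to 3.95). The ratio of Tnfrsf1a was -0.56 (-1.43 to 0.19), an interval that holds 0. Type I-like cells were 9 of the 17 sorted and 42 of the 188 unsorted hyperoxia pnd7 cells. Type II markers (9 of 9 detected) summed to 152470 CPM in the sorted and 202020 CPM in the unsorted hyperoxia cells. Type I markers (7 of 8 detected, Pdpn at 0) summed to 6588 and 5109 CPM. Alveolar macrophage markers summed to 502 CPM (12 of 14 detected, Krt79 and Siglecf at 0) and 116 CPM (12 of 14, Fabp4 and Chil3 at 0). They were at 380 CPM in air pnd7, 304 in air pnd60 and 148 in hyperoxia pnd60. The part of this mix and of these markers in the ratios was not tested.

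**Figure D4:**
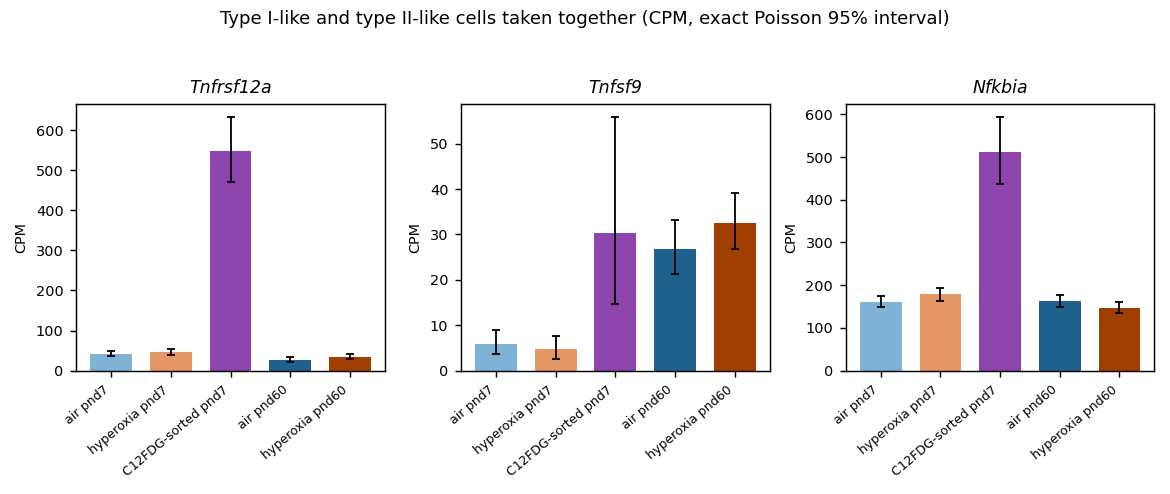
Level of Tnfrsf12a, Tnfsf9 and Nfkbia in CPM on the y axis in type I-like and type II-like cells together, for the 5 libraries on the x axis. Bars give the value of 1 library and error bars its exact Poisson 95% interval; Tnfrsf12a reaches 547 CPM in the 17 sorted cells and is between 26.4 and 46.5 CPM in the 188 to 585 cells of the other libraries.

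The members differed little between hyperoxia and air. At pnd7, 0 of 7 members were 2-fold higher and 0 lower in hyperoxia than in air, where 0.183% of genes were higher and 0.802% lower. The median over the members was 0.11. Tnfaip3 was at a log2 ratio of 0.33 (0.15 to 0.52), Nfkbia at 0.26 (0.20 to 0.33) and Tnfaip8l2 at -0.47 (-0.69 to -0.25), intervals that did not hold 0. Cell makeup differed between these 2 libraries. Endothelial-like cells were 6.54% of cells in air and 18.3% in hyperoxia, and type I-like cells 9.36% and 3.37%. The part of cell makeup in the ratios over all cells was not tested. At pnd60, 0 of 8 members were higher and 0 lower, where 0.271% of genes were higher and 0.248% lower. The co-stimulatory ligand Tnfsf9 had the largest ratio there, 0.49 (0.17 to 0.81), and Nfkbia was at -0.11 (-0.16 to -0.06).

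Within macrophage-like cells, 0 of 6 members were higher or lower between hyperoxia and air at either age, where 0.407% of genes were higher and 0.702% lower at pnd7, and 0.0863% higher and 0.345% lower at pnd60. Tnfaip2 was at 613 CPM in hyperoxia and 540 in air at pnd7 (0.18, 0.03 to 0.33), and the ratio at pnd60 was 0.17 (0.08 to 0.27). Tnfaip3 was at a ratio of 0.56 (0.10 to 1.02) and Tnfaip8l2 at -0.44 (-0.82 to -0.07) at pnd7, and Tnfrsf1a at 0.41 (0.12 to 0.69) at pnd60, intervals that did not hold 0. Nfkbia was at 217 CPM in hyperoxia and 216 in air at pnd7 (0.01, -0.24 to 0.26). Endothelial-like cells had Nfkbia at a ratio of 0.28 (0.08 to 0.49) at pnd7 and -0.43 (-0.56 to -0.29) at pnd60. Nonclassical monocyte-like cells at pnd60 had Tnfaip3 at 138 CPM in hyperoxia and 239 in air (-0.79, -1.25 to -0.34) and Nfkbia at 1271 and 1670 (-0.39, -0.55 to -0.24). In these monocytes both brakes were lower after hyperoxia, by less than 2-fold. Tnfaip3 was also lower in classical monocyte-like cells at pnd60 (-0.41, -0.71 to -0.10), but higher in endothelial-like (0.64, 0.13 to 1.16) and dendritic-like cells (0.52, 0.15 to 0.90).

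Age separated the unsorted libraries more than exposure did. In air, 4 of 8 members were at least 2-fold higher at pnd60 and 0 lower, where 15.1% of genes were higher and 9.35% lower. The 4 were Tnfaip3 (log2 ratio 2.07, 1.92 to 2.22), Tnfsf9 (1.59), Nfkbia (1.14, 1.08 to 1.20) and Tnfaip2 (1.08). In hyperoxia, 4 of 8 were higher and 0 lower, where 19.1% of genes were higher and 9.49% lower. Those were Tnfsf9 (2.00), Tnfaip3 (1.68), Tnfrsf1b (1.20) and Tnfaip2 (1.12). Tnfrsf12a was below 0 in both, at -0.42 and -0.62. With TMM or median-of-ratios scaling only 2 members stayed past 2-fold in each comparison. B-like cells made up 5.29% and 5.54% of cells in air and hyperoxia at pnd7 but 28.2% and 26.6% at pnd60, so that cell makeup moved with age, and its part was not tested over all cells.

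Differences past 2-fold were also present within classes, all toward pnd60 among those with 100 counts in classes of 50 cells or more. The share of all genes past 2-fold within a class is not given here. Whether the members stood out from other genes of their class therefore cannot be told from these ratios. In T-like cells Tnfaip3 was at 160 CPM in air pnd7 and 421 in air pnd60 (1.40, 1.13 to 1.67). These T-like cells had dissociation-response genes at a summed 2357 and 3433 CPM. Their clusters also differed in size. Cluster 38, led by Rag1 and Arpp21, held 39 of 141 T-like cells in air pnd7 and 41 of 529 in air pnd60. Cluster 7, led by Cd8b1 and Cd8a, held 5 and 169. In nonclassical monocyte-like cells Tnfaip3 was at 17.7 and 239 CPM (3.76, 2.48 to 5.41), and Nfkbia at 572 and 1670 (1.55, 1.30 to 1.80). The 17.7 CPM rests on few counts, since these cells of air pnd7 held 283222 counts of all genes. The dissociation-response genes summed to 4661 CPM in these monocytes in air pnd7 and 13775 in air pnd60, and 55 of the 57 cells at pnd7 lay in cluster 39 but 145 of 148 at pnd60 in cluster 11. Tnfaip2 was at 9.32 and 100 CPM in fibroblast-like cells in air (3.43, 2.68 to 4.28) and at 9.69 and 139 in hyperoxia (3.84, 3.16 to 4.60). The dissociation-response genes summed to 3000 CPM in air pnd7 and 8649 in air pnd60 in these cells, and the fibroblast-like cluster 3 held 257 and 278 cells of the pnd60 libraries and 0 of either pnd7 library. Type II-like cells, which make surfactant, had Tnfsf9 at 6.81 and 29.0 CPM in air (2.09, 1.34 to 2.91) and at 4.86 and 32.2 in hyperoxia (2.73, 1.86 to 3.73). They too lay mainly in separate clusters, cluster 12 with 173 and 145 cells at pnd7 and 0 and 2 at pnd60, and cluster 2 with 0 at pnd7 and 382 and 457 at pnd60. The part of the dissociation response and of these clusters in the age differences was not tested.

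Across classes each member had its own order, given here as the mean of air and hyperoxia at one age. Classes with at least 20 cells in both libraries of an age were ordered, 12 at pnd7 and 16 at pnd60, so that neutrophil-, classical monocyte-, dendritic-, NK-, ciliated- and interstitial macrophage-like cells were not ranked at pnd7. Tnfrsf1b was highest in nonclassical monocyte-like cells, at 828 CPM at pnd7 and 1099 at pnd60, and did not overlap the next class at either age. The next were alveolar macrophage-like cells at pnd7 (250 CPM) and classical monocyte-like cells at pnd60 (600 CPM). Tnfrsf1a was spread more widely, with nonclassical monocyte-like (238 CPM) and endothelial-like cells (193 CPM) leading at pnd7 with overlapping intervals and B-like cells lowest (2.57 CPM). At pnd60 neutrophil-like cells led for Tnfrsf1a (394 CPM), and the leading 4 classes overlapped each other in turn. Tnfrsf12a marked other cells, with myofibroblast or smooth muscle-like (70.4 CPM), type I-like (62.6), pericyte-like (54.0) and type II-like cells (37.7) leading at pnd7, neighbors that overlapped. Of the receptors, then, Tnfrsf12a was the one led by structural and epithelial cells.

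Tnfaip2 was highest in alveolar macrophage-like cells at pnd7 (704 CPM), clear of nonclassical monocyte-like cells (239 CPM). At pnd60 neutrophil-like (1513 CPM) and alveolar macrophage-like cells (1151 CPM) led and overlapped. Tnfaip3 was highest in T-like cells, at 180 CPM at pnd7, clear of the next class, and 409 CPM at pnd60, where it overlapped classical monocyte-like cells (367 CPM). Nfkbia was highest in nonclassical monocyte-like cells at pnd7 (615 CPM), overlapping T-like cells (437 CPM), and at pnd60 in neutrophil-like (1960 CPM), classical (1591 CPM) and nonclassical monocyte-like cells (1470 CPM), which overlapped. Tnfaip8l2 was led by nonclassical monocyte-like cells at pnd7 (140 CPM) and classical monocyte-like cells at pnd60 (101 CPM). The unranked interstitial macrophage-like cluster 23 had Tnfaip8l2 at 165 and 138 CPM at pnd7. At pnd60 myofibroblast or smooth muscle-like and pericyte-like cells had 0 counts of it. Tnfsf9 was led by type II-like cells at pnd7 (5.84 CPM) and classical monocyte-like cells at pnd60 (39.9 CPM), each overlapping the next. Tnfsf14 was at 115 CPM in neutrophil-like cells at pnd60, on 8 and 12 counts, clear of NK-like cells (14.7 CPM).

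**Figure D5:**
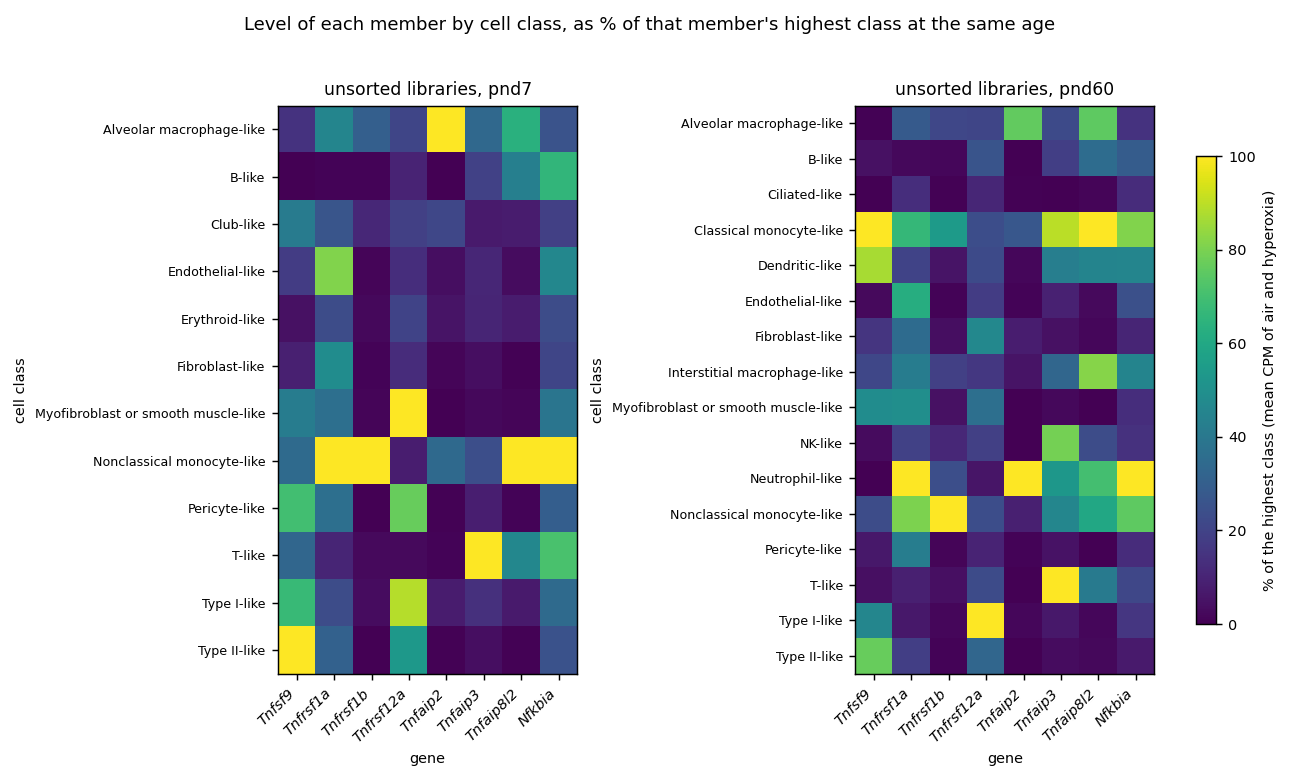
Level of each of 8 members (x axis) by cell class (y axis) as percent of that member's highest class at the same age, on a linear color scale, for the unsorted libraries at pnd7 (left) and pnd60 (right). Each cell of the map is the mean CPM of the air and hyperoxia libraries; only classes with at least 20 cells in both libraries of an age are drawn, 12 at pnd7 and 16 at pnd60, and among these Tnfrsf1b is highest in nonclassical monocyte-like cells at both ages and Tnfaip2 in alveolar macrophage-like cells at pnd7 and neutrophil-like cells at pnd60.

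Over 60 groups of 1 class in 1 library, the genes most like a member by Pearson r among 10365 genes are given as a description, since the groups share libraries and depth. They were Fcer1g (0.918), Myo1f and Igsf6 for Tnfrsf1b, and Clec7a (0.938), Ccl6 and Lilrb4a for Tnfaip2. For Tnfaip3 they were Selplg (0.846), Arhgap45 and Gm8995, and for Nfkbia Ccnl1 (0.839), Neurl3 and Mcl1. Tnfrsf1a was nearest to Tbkbp1 (0.810) and Tnfrsf12a to Arxes2 (0.641).

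The rest of the pathway was read from gene lists without the members, against the share of all genes past 2-fold, 8.17% higher and 36.4% lower in the first comparison. TMM scaling raised all ratios of that comparison by 0.52. Between the sorted and unsorted hyperoxia libraries, 14 of 18 NF-kB-induced genes were at least 2-fold higher and 2 lower (median 2.16). The neutrophil chemokine Cxcl2 was at 2100 and 35.9 CPM (log2 ratio 5.87), the cytokine Il1a at 4.73 and the chemokine Cxcl1 at 3.88. Csf1 and Vcam1 were the 2 lower genes. Of 12 other NF-kB subunits and inhibitors, Nfkbib, Rel and Nfkbid were higher and 0 were lower. Of 12 other TNF receptors 0 were higher and 8 lower, led by Tnfrsf19, Tnfrsf13c and Cd27. The sorted library held 0 B-like and 0 T-like cells, against 69 and 68 in hyperoxia pnd7. The part of cell makeup in these list counts was not tested. Of 24 receptor signaling genes only the kinase gene Ripk1 was higher, and Tab1, Traf1 and Birc2 were lower. Of 8 genes that control TNF mRNA or shedding, 3 were higher, among them Adam17 (159 and 52.6 CPM), which encodes the protease that releases TNF, and 2 were lower. Of 2 other TNF ligands 1 was lower, Tnfsf10, and of 3 other TNFAIP family genes 2 were lower, Tnfaip8l1 and Tnfaip1.

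Within macrophage-like cells, where 4.03% of all genes were higher and 14.3% lower, 8 of 15 NF-kB-induced genes were at least 2-fold higher and 0 lower (median 1.18), led by Cxcl1 (5.36, 3.81 to 7.64, on 3 counts in the unsorted cells), Cxcl2 (2.78) and Ier3 (2.65, a gene with a further copy). Of 11 NF-kB subunits and inhibitors 3 were higher, Bcl3, Nfkbib and Relb, and 0 lower. Of 5 other TNF receptors 3 were lower, Tnfrsf13b, Tnfrsf11a and Tnfrsf21, and 0 higher. Genes known to respond to cell dissociation were mixed, with Atf3 and Jund higher and Fos, Fosb and Dusp1 lower of 11. Their summed level over all cells was 2853 CPM in the sorted library and 4084 to 6551 in the others.

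With age in air, 8 of 13 NF-kB subunits and inhibitors were higher at pnd60 (median 1.46), led by Tnip3, Bcl3 and Nfkbid, and 0 lower, against 15.1% and 9.35% of all genes. In hyperoxia the counts were also 8 of 13 and 0 (median 1.34), against 19.1% and 9.49%. Of the TNF ligands, 3 of 5 were higher in air, led by Tnfsf13b, the B cell survival factor BAFF, and 4 of 7 in hyperoxia. Between hyperoxia and air at pnd7, Cxcl10 and Ccl4 were the 2 of 19 NF-kB-induced genes that were higher, where 0.183% of all genes were, and at pnd60 the count was 0 of 19, where 0.271% of all genes were higher.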

How the data were processed

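The deposited files held UMI counts per gene and barcode, which the authors made with Cell Ranger on Chromium 3′ v3.1 libraries (mm10 and Seurat 3.2.1 per the labels, software version 3.1.0 per the file headers). Cells with more than 700 and fewer than 8000 genes and under 5% mitochondrial counts (2 mitochondrial features) were kept, which left 493 of 569 barcodes in the sorted library, the number the study gives. Scrublet called 0 to 157 cells per library (0 and 4 in the unsorted pnd7 libraries), and they were kept. Cells of the 5 libraries were clustered together without integration (3000 features, 50 principal components, 20 neighbors, Leiden resolution 2), with the members and pathway lists left out of the features. Clusters were named from markers, with 3 raised markers needed. Where no marker was among the 10 leading genes, 5 raised markers and a clear lead over the next class were needed. Clusters 9 and 41, which hold the sorted alveolar macrophage-like cells, were named by this second rule. They had 11 and 13 of 14 markers raised. Class names are rebuilt and may differ from those of the study.

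Counts were summed per library or class and divided by their total. Ratios have exact binomial 95% intervals. No test was possible with 1 library per condition. Named genes were the 10 members, the 3 genes most like a member, and in each pathway list up to 3 genes with the largest ratio in each direction among those with 100 counts. Further genes of short lists, Adam17 and the genes of the Tnfaip3 split were named after their values were seen. Members and lists were chosen with earlier results of these data known. Simulated counts for the sorted against unsorted hyperoxia comparison (11338 genes) gave 50 of 50 genes called at 4-fold and 29 of 50 at 2-fold in each direction. The alternatives were other filters, scalings, count minimums, cluster resolution, thinning, doublet removal and mean CPM per cell. Scripts used Python 3.11.15, numpy 2.4.6, scipy 1.17.1, pandas 2.3.3, scikit-learn 1.9.0, scanpy 1.11.5, leidenalg 0.10.2, igraph 0.11.9 and matplotlib 3.10.9.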

Additional observations from a re-analysis of the deposited data

Results flagged for a closer look

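For 2 members the hyperoxia and air libraries differed in opposite directions at the 2 ages. Tnfrsf1b was lower in hyperoxia at pnd7 (log2 ratio -0.19) and higher at pnd60 (0.13). Nfkbia was higher in hyperoxia at pnd7 (0.26) and lower at pnd60 (-0.11). Each direction rests on 1 library against 1 library, and the difference between the ages was not tested. Cell makeup differed between air and hyperoxia at pnd7, and its part in these ratios was not tested either. All 4 ratios are far below 2-fold.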

How the results depend on the processing

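Each main median was given a range, from the median of the members' lower limits to the median of their upper limits. This range is not a confidence interval of the median. Of 99 medians under alternatives 77 stayed inside the range of the main median and 22 moved outside it. A change of sign was counted only where that range excluded 0, and 0 were counted. The comparisons of hyperoxia with air, whose ranges held 0, could not add to this count. No paired analysis was possible because there was only 1 library of each kind. For the sorted against unsorted hyperoxia comparison over all cells, the median was 1.85 with all barcodes, 1.63 with TMM and 1.72 with median-of-ratios scaling, and 7 members were 2-fold higher with all barcodes and with median-of-ratios scaling. Against air it was 1.73 with all barcodes, 1.495 with TMM, 1.60 with median-of-ratios scaling and 1.43 with cells thinned to 1000 UMIs, and 7 members were higher under the first 3. Hyperoxia against air at pnd7 had a median of 0.29 as mean CPM per cell. For age in air the median was 1.72 with all barcodes, 0.77 with TMM, 0.81 with median-of-ratios scaling, 0.49 as mean CPM per cell and 0.54 with thinned cells, and 2 members were higher under both scalings. For age in hyperoxia it was 1.69, 0.70, 0.69, 0.56 and 0.55 in that order and 1.12 with a minimum of 30 counts or 1 count, and 2 members were higher under both scalings, as mean CPM per cell and with thinned cells. For macrophage-like cells, sorted against unsorted hyperoxia, it was 0.94 with TMM and 0.93 with median-of-ratios scaling, with 3 members higher under each, 2 with thinned cells and with a minimum of 30 counts or 1 count, and 1 lower with thinned cells. TMM and median-of-ratios scaling shifted all genes by 0.52 and 0.61 in the first comparison, 0.50 and 0.60 against air, -0.22 and -0.18 for age in air, -0.24 and -0.25 for age in hyperoxia and 0.49 in macrophage-like cells. The cause of the other moves was not tested. Without the cell filter, hemoglobin took 39.2% and 37.6% of the counts of the unsorted pnd7 libraries. Depth limits Tnfsf14, at most 55 counts per library, and the 75 unsorted macrophage-like cells limit every ratio within that class.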
